A study of Solanum lycopersicum with 6 samples.

Results

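The WRKY transcription factors of tomato (Solanum lycopersicum) were followed in leaf discs treated with loliolide, a metabolite of the carotenoid pathway. Members were the genes whose symbol or synonym in the RefSeq gene table for assembly SLM_r2.1 contains WRKY, and every array probe that carries a transcript accession of such a gene. The gene table holds 23 WRKY genes, and 6 of them were matched by 16 probes, out of 1191 named genes and 43603 distinct non-control probes on the array. The other 17 genes were not analysed here. The 6 genes are WRKY2 (gene 778199, 5 probes), WRKY40 (gene 100301944, 1 probe), WRKY41 (gene 100736444, 2 probes), WRKY72B (gene 100529133, 2 probes), WRKY81 (gene 101259967, 5 probes) and LOC101248692, whose synonyms are SlWRKY16 and SlWRKY30 (1 probe).

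All discs came from 4-week-old plants of the cultivar Micro-Tom, a dwarf laboratory line, grown at 25 °C in days with 16 h light and nights of 8 h. Discs 1 cm across floated for 12 h under continuous light, either on 300 µM loliolide or on 0.1% methanol as the control, and each group has 3 samples. The methanol content of the loliolide solution is not recorded. A separate 1-colour Agilent array was used for each sample. The labels speak of harvests in triplicate without naming separate plants, so the p-values below measure the spread between these samples only.

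WRKY proteins are a large plant family of transcription factors, named after the amino acids at the start of their conserved DNA-binding domain. They bind a short promoter element called the W-box, which is common in defence genes and in the promoters of WRKY genes themselves. In leaves many of them respond quickly to pathogens, wounding, salicylate, drought and senescence. Some act downstream of MAP kinases, and single members can activate or repress their targets.

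The 75th percentile of the signal was 1107 to 1117 on the methanol arrays. It was 1048, 1084 and 817.7 on the arrays of loliolide replicates 1, 2 and 3. Between 84.5% and 85.3% of the non-control spots were well above background with methanol, and between 86.9% and 87.6% with loliolide. In both measures every loliolide array thus lay apart from every methanol array. The 3 methanol arrays lay on slide 1 and the 3 loliolide arrays on slide 2, so a difference between slides and one between treatments cannot be told apart anywhere below. The 10 E1A spike-in controls, which are meant to be added in equal amounts to every sample, read higher on the loliolide arrays by 0.23 to 1.26 on the log2 scale after scaling. Of the leaf markers considered, CAB4 and CAB6A, which encode chlorophyll-binding proteins, were on the array, and both exceeded background clearly on each of the 6 arrays. Their summed level, relative to the 75th percentile, was 19.9 to 39.1 with methanol and 19.3 to 48.6 with loliolide. Of the 3 root genes on the array, ext1 and PT4 were not well above background on any array and TIP was on all 6, and their summed level was 0.529 to 0.573 with methanol and 0.541 to 0.662 with loliolide. Of 6 ripening-fruit genes, 2 were well above background on all arrays, and the summed level of the 6 was 0.490 to 0.593 with methanol and 0.698 to 0.822 with loliolide, a difference whose part in the WRKY results was not tested. None of the pollen and seed markers considered was matched on the array. The discs hold several cell types, and fewer cells of a type and less RNA per cell cannot be told apart in these signals.

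The question was whether the WRKY genes on the array differed between loliolide and methanol. None of the 15 tested WRKY probes passed a limma adjusted p of 0.05, where 0.783% of all 37423 tested probes did. The lowest limma adjusted p among the WRKY probes was 0.156. At an unadjusted p under 0.05 limma counted 3 WRKY probes, 2 of WRKY81 with lower signal and 1 of WRKY72B with higher signal, against 20.1% of all tested probes. The groups did not overlap for 5 of the 15 WRKY probes, or 33.3%, and for 29.5% of all tested probes. Both shares lie near those of the array as a whole.

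The family did not move one way. Its probes were lower with loliolide in 10 of 15 cases (13 when scaled to the spike-ins), against 39.2% of all tested probes, and 5 of the 10 belong to WRKY81. The median log2 difference was -0.10 over the WRKY probes and 0.06 over all tested probes. With the brightest probe standing for each gene, 4 genes were higher and 2 were lower, with a median of 0.11, or 2 higher and 4 lower with a median of -0.19 when scaled to the spike-ins. The 5 probes of WRKY81 were lower by at least 0.5 on the log2 scale, a size reached downwards by 2.22% of all tested probes. This cut and its direction were not planned, and the smallest of the 5 differences was -0.57, so the share is a description only. These 5 probes read the same gene in the same RNA and count as 1 gene.

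**Figure D1:**
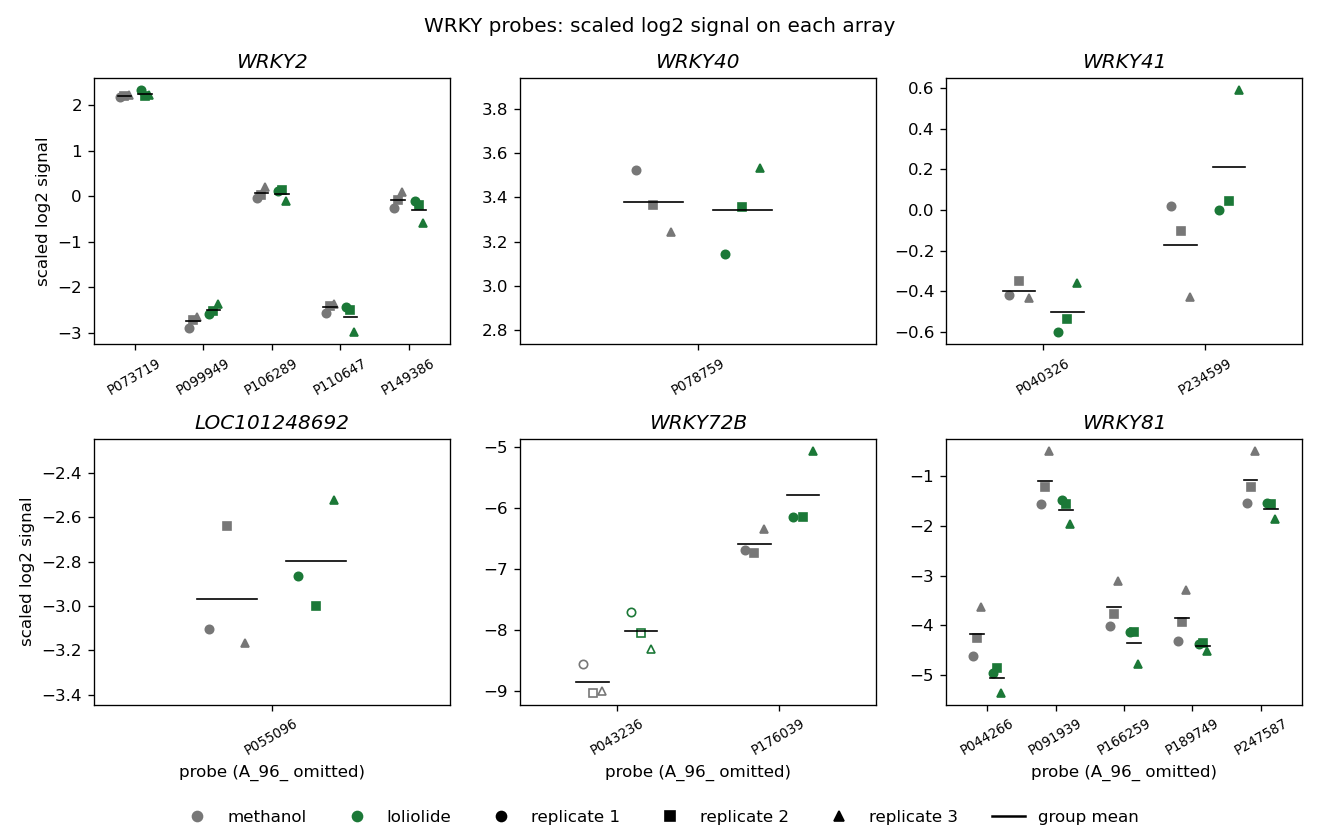
Scaled log2 signal (log2 signal minus the array's 75th percentile) of the 16 WRKY probes on each array, with methanol in grey, loliolide in green, a symbol for each replicate number and a bar at each group mean (n = 3). Hollow symbols mark the WRKY72B probe that was not well above background on any array. All 5 WRKY81 probes have their highest point on methanol replicate 3 and their lowest on loliolide replicate 3.

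All 5 probes of WRKY81 had lower signal with loliolide. In tomato, WRKY81 is known as a negative regulator of drought tolerance, and silencing it favours stomatal closure. Its brightest probe, A_96_P247587, read -1.55, -1.23 and -0.49 with methanol replicates 1, 2 and 3, and -1.54, -1.57 and -1.86 with loliolide, as scaled log2 signal. Methanol replicate 3 stood above the others, methanol replicate 1 lay level with 2 of the loliolide arrays, and the groups overlapped. The group means were -1.09 ± 0.54 (SD, n = 3) with methanol and -1.66 ± 0.18 (SD, n = 3) with loliolide. The difference was -0.57 (SE 0.27, limma adjusted p = 0.289), and its 95% interval ran from -1.21 to 0.07.

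The probe with the strongest difference was A_96_P044266. It read -4.62, -4.25 and -3.63 with methanol and -4.95, -4.85 and -5.35 with loliolide. Here all loliolide arrays lay below all methanol arrays. The level was 1.85-fold higher with methanol, a log2 difference of -0.88 (SE 0.26, limma adjusted p = 0.156). The other 3 probes differed by -0.72 for A_96_P166259, -0.58 for A_96_P091939 and -0.57 for A_96_P189749, with limma adjusted p between 0.226 and 0.294. The groups did not overlap for 3 of the 5 probes, where 9.65% of all tested probes have loliolide below methanol without overlap.

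The 5 WRKY81 probes tracked each other from array to array. Centred on each probe's own mean, they read 0.84 to 0.98 on methanol replicate 3 and -0.80 to -0.39 on loliolide replicate 3. On the 4 other arrays they lay between -0.34 and 0.36. The within-group SD of these probes lay between the 89.3rd and the 93.1st percentile of all tested probes. Pooled over both treatments, WRKY81 therefore varied more between samples of one treatment than most probes did. The SD of its probes was 0.47 to 0.54 with methanol and 0.09 to 0.38 with loliolide.

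**Figure D2:**
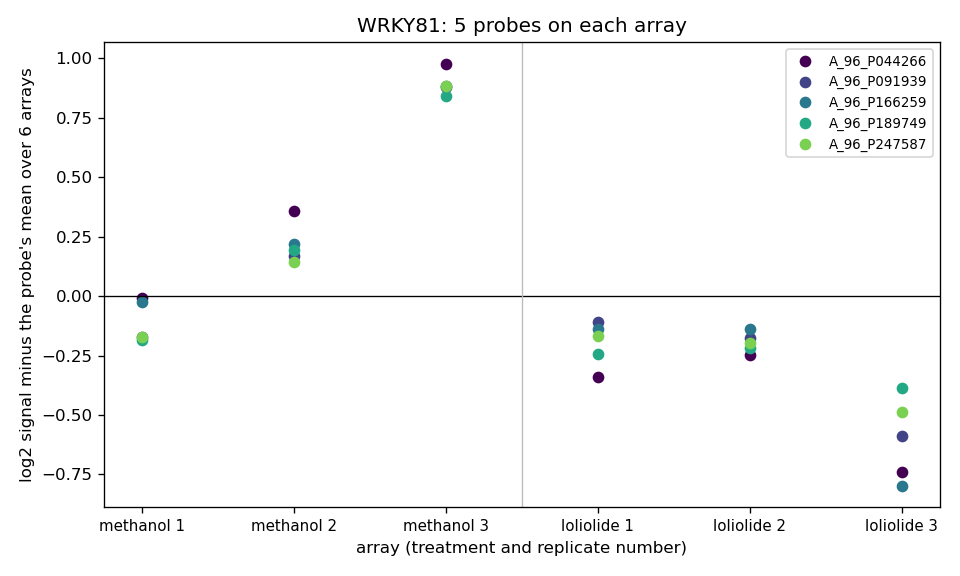
Scaled log2 signal of the 5 WRKY81 probes on each of the 6 arrays, each probe centred on its own mean. Methanol replicate 3 holds the highest and loliolide replicate 3 the lowest point of every probe, and on methanol replicate 1 the points lie between -0.18 and -0.01, within or just above the range of loliolide replicates 1 and 2.

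The size of the WRKY81 difference rested on those arrays. Without methanol replicate 3 the 5 probes differed by -0.62 to -0.27, and without loliolide replicate 3 by -0.73 to -0.43. Without both arrays, a comparison of 2 against 2 chosen after seeing the data, they differed by -0.47 to -0.14. All 5 were still lower, but they track each other and count as 1 gene. The lowest limma adjusted p of the 5 probes was 0.190, 0.321 and 0.176 in these 3 fits. Loliolide replicate 3 was also the array with the lowest 75th percentile, and the part of this in the result was not tested.

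WRKY72B had the largest positive difference of the WRKY genes. In tomato the WRKY72 genes contribute to basal defence and to the resistance to root-knot nematodes that the gene Mi-1 gives. Its probe A_96_P176039 read -6.68, -6.73 and -6.33 with methanol and -6.15, -6.14 and -5.05 with loliolide. All loliolide arrays lay above all methanol arrays, and loliolide replicate 3 lay well above the rest. Groups with loliolide above methanol and no overlap made up 19.8% of all tested probes. The means were -6.58 ± 0.22 (SD, n = 3) and -5.78 ± 0.63 (SD, n = 3). The difference of 0.80 (SE 0.31, limma adjusted p = 0.22), or 1.74-fold, had a 95% interval from 0.07 to 1.54. Without loliolide replicate 3 it was 0.44 (limma adjusted p = 0.278), and with normexp background correction 0.29.

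This probe was among the dimmest tested. Its unscaled signal was 10.5 to 13.8 with methanol and 14.8 to 24.6 with loliolide, and every array placed it well above background. Among the 10% of tested probes with the lowest signal, which include this probe, the median difference was 0.35 and 82.1% of the probes were higher with loliolide. A difference of at least the size seen for WRKY72B was found for 14.3% of these dim probes. Of the 37423 tested probes, 36131 were well above background on all 6 arrays, as WRKY72B was. The rest were tested because every array of 1 group was well above background. Their part in the shares among dim probes was not tested. The spike-in with the highest difference, (+)E1A_r60_3, differed by 1.26 between the same groups, and its part in the result was not tested. The other probe of the gene, A_96_P043236, was not well above background on any array and gives no level.

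WRKY41 gave opposite signs on its probes. In Arabidopsis, the gene of this name acts in seed dormancy and defence. Probe A_96_P234599 read 0.02, -0.11 and -0.43 with methanol and 0.00, 0.04 and 0.59 with loliolide. The groups overlapped, because methanol replicate 1 lay above loliolide replicate 1. The difference was 0.38 (SE 0.20, limma adjusted p = 0.322), and it was 0.19 without loliolide replicate 3, 0.25 without methanol replicate 3 and 0.07 without both. Probe A_96_P040326 read -0.42, -0.35 and -0.43 with methanol and -0.60, -0.54 and -0.36 with loliolide. Its difference was -0.10 (SE 0.10, limma adjusted p = 0.604), and its groups overlapped as well. Whether these probes respond unequally was not tested.

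WRKY40 showed no difference beyond its spread. In Arabidopsis, WRKY40 is a repressor of defence and of abscisic acid signalling. Probe A_96_P078759 read 3.53, 3.36 and 3.24 with methanol and 3.14, 3.35 and 3.53 with loliolide. The groups overlapped, with loliolide replicate 1 below every methanol array. The means were 3.38 ± 0.14 (SD, n = 3) and 3.34 ± 0.19 (SD, n = 3), so that they differed by -0.04 (SE 0.13, limma adjusted p = 0.908). The 95% interval of -0.36 to 0.28 leaves out a 2-fold change in either direction.

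WRKY2 was the steadiest of the WRKY genes on its brightest probe. The Arabidopsis gene of this name acts in pollen and in the polarity of the zygote. Probe A_96_P073719 read 2.19, 2.20 and 2.24 with methanol and 2.33, 2.21 and 2.23 with loliolide. Its within-group SD was lower than that of all but 2.90% of the tested probes. The difference was 0.05 (SE 0.09, limma adjusted p = 0.789), with a 95% interval from -0.16 to 0.25.

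The other 4 WRKY2 probes spread to both sides of 0. A_96_P099949 read -2.90, -2.72 and -2.65 with methanol and -2.59, -2.53 and -2.37 with loliolide. Its loliolide arrays lay above all methanol arrays, and the difference was 0.26 (SE 0.11, limma adjusted p = 0.25). A_96_P110647 and A_96_P149386 differed by -0.20 and -0.21, and A_96_P106289 by -0.01, all with overlapping groups. Without loliolide replicate 3, their lowest array, these differences were between -0.06 and 0.06. RefSeq lists 10 transcripts for WRKY2, and all 5 probes carry the accession of a single one. The transcripts that each probe reads were not analysed here.

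LOC101248692 was matched by the probe A_96_P055096. It read -3.10, -2.64 and -3.17 with methanol and -2.87, -3.00 and -2.52 with loliolide. One array of each group stood above the others, and the groups overlapped. The means were -2.97 ± 0.29 (SD, n = 3) and -2.80 ± 0.25 (SD, n = 3), so that they differed by 0.17 (SE 0.19, limma adjusted p = 0.637). It was 0.04 without loliolide replicate 3, 0.07 without methanol replicate 3 and 0.34 without methanol replicate 2.

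**Figure D3:**
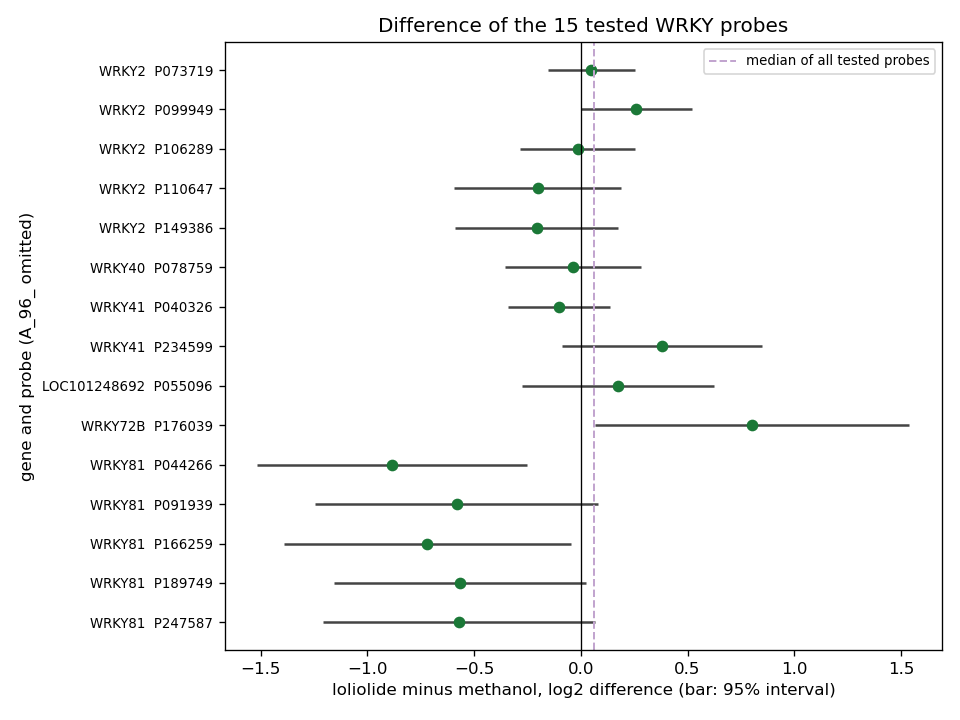
Log2 difference of loliolide minus methanol for the 15 tested WRKY probes, with the 95% interval from limma as a bar and the median of all tested probes (0.06) as a dashed line. The WRKY81 probes lie between -0.88 and -0.57, WRKY72B lies at 0.80, and the intervals of 12 probes include 0.

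The arrays allowed small differences to be called for steady probes only. The largest unadjusted p that passed the adjusted threshold over all probes was 0.000385. With its own SE, the brightest WRKY2 probe needed a log2 difference of 0.56 to reach that value. The WRKY81 probes needed 1.63 to 1.85 and WRKY72B needed 2.02. The differences measured for WRKY81 and WRKY72B were between -0.88 and 0.80, short of these sizes.

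Scaling moved the smaller differences across 0. With scaling to the spike-in controls the median of all probes moved from 0.06 to -0.24, and 13 of 15 WRKY probes were lower, with WRKY72B at 0.50 and one WRKY41 probe at 0.08 still higher. With this scaling LOC101248692 was at -0.13 and the brightest WRKY2 probe at -0.25. The WRKY81 probes were lower under each of the 4 other scalings or background corrections, by -0.51 to -0.23 with normexp and by -1.18 to -0.86 with the spike-in scaling. With array weights they differed by -0.45 to -0.18.

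**Figure D4:**
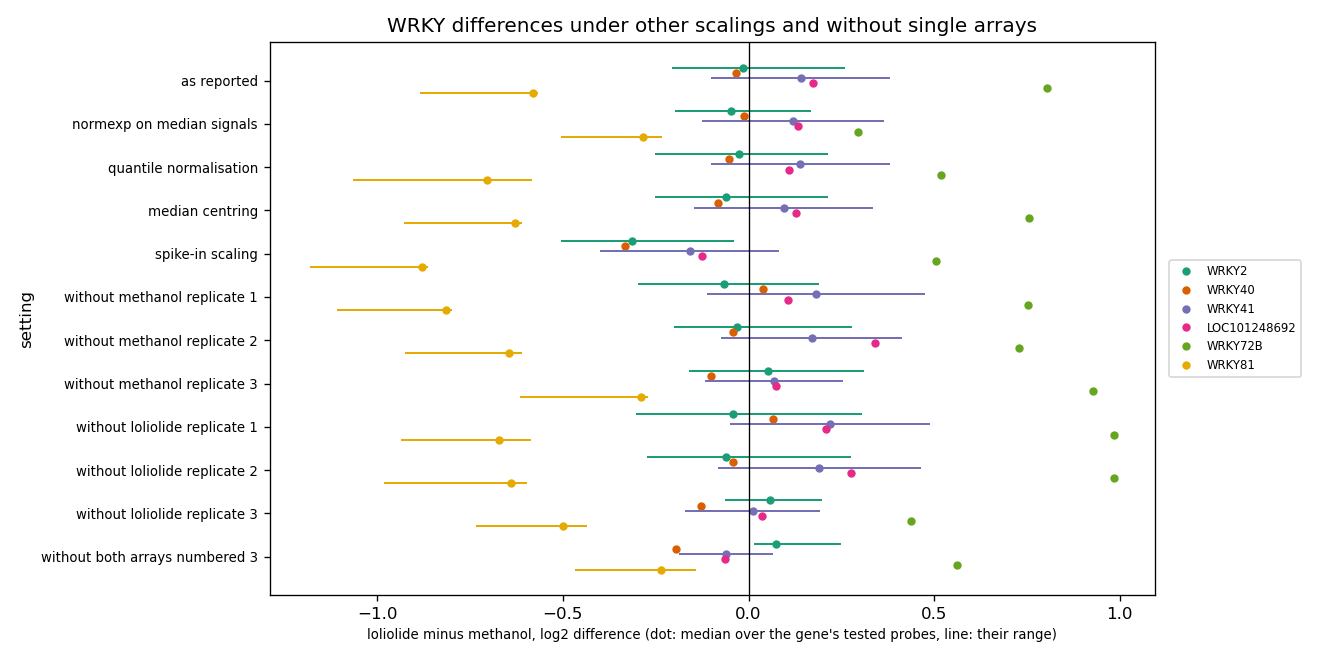
Log2 difference of loliolide minus methanol for each WRKY gene under the setting named on the vertical axis, with a dot at the median over the gene's tested probes and a line over their range. WRKY81 stays left of 0 and WRKY72B right of 0 under the settings drawn, and each of the 4 other genes has medians on both sides of it. With the spike-in scaling WRKY40 lies at -0.33 and the WRKY2 median at -0.31. With normexp the WRKY81 median lies at -0.28 and WRKY72B at 0.29.

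The profile of each WRKY gene over the 6 arrays was set against those of 1073 other named genes, as the root mean square difference between centred log2 levels of the brightest probes. Nearest to WRKY81 was SQD1, a gene of sulfolipid synthesis, at 0.17, where loliolide minus methanol was -0.47 (SE 0.15, limma adjusted p = 0.173). Nearest to WRKY41 was CDPK2, a calcium-dependent protein kinase gene, at 0.06. Nearest to LOC101248692 was the ethylene response factor gene LOC606712, with the synonym TERF1, at 0.05. LAPA2, a leucine aminopeptidase gene, lay 0.05 from WRKY40, and kdsA lay 0.02 from WRKY2, whose own profile is almost flat. The nearest gene to WRKY72B was the Dicer-like gene DCL4 at 0.29, the largest of these distances. The profile of WRKY72B also varied most among the WRKY genes, with a root mean square of 0.556 around its own mean, where WRKY2 had 0.045. These distances describe 6 arrays, and all genes share the same arrays and treatments.

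Lists of immune, salicylate and senescence genes, chosen by name, were counted by the brightest probe of each gene. Whether their members work with these WRKY genes was not tested. Of 18 tested immune receptor and kinase genes, 9 were higher and 9 were lower, with a median of 0.00, and none passed. In limma 0 of the 18 had an unadjusted p under 0.05, where 195 of 1102 named genes, or 17.7%, did and 7 passed. When scaled to the spike-ins all 18 were lower, with a median of -0.30, where the median of all named genes was -0.25. The smallest unadjusted p in each direction belonged to MPK9, a MAP kinase gene, at -0.23 (SE 0.11, limma adjusted p = 0.291), and Ve2, a gene of the Verticillium receptor locus, with 0.16 (SE 0.10, limma adjusted p = 0.406). MPK3, a MAP kinase of early immune signalling, differed by -0.25 (SE 0.13, limma adjusted p = 0.329).

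Of 11 tested salicylate and pathogenesis-related genes, 6 were higher and 5 were lower, with a median of 0.12 (-0.18 when scaled to the spike-ins), and none passed, while 3, or 27.3%, had an unadjusted p under 0.05 in limma, against 17.7% of the named genes. The gene PR-5 read -5.89, -6.57 and -4.14 with methanol and -8.81, -7.10 and -7.70 with loliolide, as scaled log2 signal. It was well above background on 3 methanol arrays and 1 loliolide array. Since the 2 other loliolide readings were not well above background, no size is given for its difference, although the gene is among the 5 lower and the 3 above. LOC543878, with the synonym PR5, was higher by 0.35 (SE 0.12, limma adjusted p = 0.193). NML1, the remaining gene of these 3, differed by -0.385 (SE 0.127, limma adjusted p = 0.176). NPR1, known from Arabidopsis as a salicylate receptor and coactivator of defence genes, differed by 0.12 (SE 0.11, limma adjusted p = 0.571). Of the senescence list only GR was on the array, at -0.28 (SE 0.12, limma adjusted p = 0.251). It was matched by its symbol alone, so its value is not read as a measure of senescence.

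Of 59 genes of other transcription factor families, matched by the start of their names, 34 were higher and 25 were lower, with a median of 0.07 and a range from -1.18 to 0.52. The median was 0.00 with quantile normalisation and -0.23 when scaled to the spike-ins. This match also took in 4 arabinofuranosidase genes whose names start with Arf. None passed, and 7, or 11.9%, had an unadjusted p under 0.05 in limma, against 17.7% of the named genes. Over all 1102 named genes tested, 654 were higher and 448 lower, with a median of 0.05 (162 and 940 when scaled to the spike-ins).

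**Figure D5:**
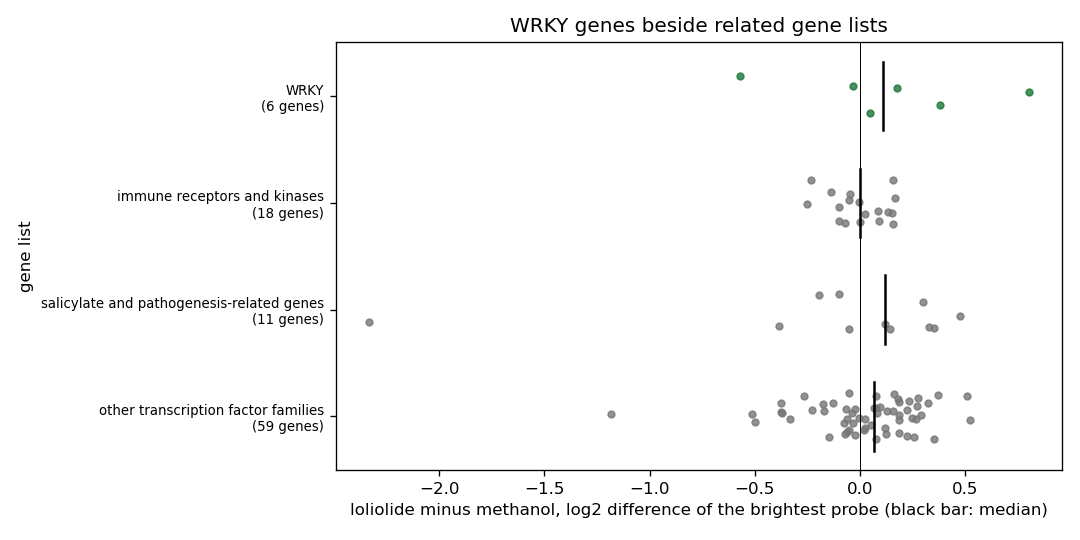
Log2 difference of loliolide minus methanol for the brightest probe of each gene in 4 lists, with a black bar at each list's median. The 6 WRKY genes lie between -0.57 and 0.80, and the 18 immune receptor and kinase genes lie between -0.25 and 0.17. The leftmost point is PR-5, which was not well above background on 2 of the 3 loliolide arrays.

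Responsive probes listed in the authors' deposited table number 27, where the array holds 43603 distinct non-control probes. Of the 16 WRKY probes 0 are among them, which says little about the family given so short a list.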

How the data were processed

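Total RNA (500 ng per sample, per the labels' protocols) was labelled with cyanine-3. The deposited intensity values are spot signals that Agilent Feature Extraction background-subtracted and detrended within each array, version 11.5.1.1 per the file headers and 9.1 per the submitters' processing notes. The authors also deposited log2 ratios for 27 probes, of which only the probe names were used.

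Processed signals were log2-transformed and scaled by subtracting, per array, the 75th percentile of the non-control spots. Outlier spots by the deposited flags (0 to 5 per array, none on a WRKY probe) were dropped, and each WRKY probe has 1 spot per array. Testing required a signal well above background on every array of either group, which 37423 probes met and 6180 did not. The treatments were compared with limma 3.58.1 (lmFit, eBayes; R 4.3.3) and p-values were adjusted by Benjamini-Hochberg over all tested probes, with a threshold of 0.05. The procedure was tested on simulated data. The number of arrays limits the precision. Accessions were matched through the RefSeq table, whose assembly the array files do not name, so no coordinates are given. Named genes were all WRKY genes, the nearest profile to each, and for each defence list the member with the smallest p per direction. MPK3, NPR1, NML1 and (+)E1A_r60_3 were named after their values were seen. Members and lists were chosen with earlier results of these data known. Other settings tried, with their effects, are given at the end.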

Additional observations from a re-analysis of the deposited data

How the results depend on the processing

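No WRKY probe or gene passed a limma adjusted p of 0.05 under any alternative run, so 0 stayed 0. The lowest adjusted p of a WRKY probe was 0.0597 with array weights (WRKY2 probe A_96_P099949), where WRKY72B had 0.0726. WRKY72B had 0.098 without both arrays numbered 3. The count of WRKY probes higher with loliolide, 5 as reported, was 2 with the spike-in scaling and 5 or 6 when single arrays were left out. Among the 6 genes, 102 of 108 comparisons kept direction and call, and 6 changed sign. These were LOC101248692 at -0.13 with the spike-in scaling and -0.062 without both arrays numbered 3, and WRKY2 at -0.25 with the spike-in scaling and -0.023 with the mean over its probes. WRKY40 was at 0.04 without methanol replicate 1 and 0.065 without loliolide replicate 1. Over all probes, 293 changed as reported. This count was 95 with normexp, 107 with quantile normalisation, 189 with median centring, 65 with the spike-in scaling, 190 when a signal well above background was required on all 6 arrays, 154 with a variance trend and robust eBayes, and 3532 with array weights. It lay between 0 and 105 when single arrays were left out and was 0 without both arrays numbered 3, a setting chosen after seeing the data with fewer samples by construction. With the replicate block 0 probes changed, and the lowest limma adjusted p of the WRKY probes was 0.256. The labels do not state that the numbers pair samples, and same-numbered arrays deviated with correlations of -0.16, -0.14 and -0.46. The cause of the other shifts was not tested. No fit with slide as a block was possible, since each slide holds 1 group. WRKY72B was read by a probe among the dimmest tested, and the offset of 50 in normexp shrinks differences of dim probes by construction. The part of this in its difference of 0.29 with normexp was not tested.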

Other observations

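Of the 15 tested WRKY probes, 8 had their highest level on methanol replicate 3 and their lowest on loliolide replicate 3, 5 of WRKY81 and 3 of WRKY2. The WRKY41 probe A_96_P234599 ran the opposite way, lowest on methanol replicate 3 and highest on loliolide replicate 3. Over all tested probes 11.4% had the first pair of extremes, and the share with the opposite pair was not counted. The pattern was noticed in the data, and probes of the same gene are not independent. The array of loliolide replicate 3 held the highest level of 36.0% and the lowest level of 23.2% of all tested probes.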
